A study of Mus musculus with 75 samples.

Results

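Old and young mice that had been joined to each other were compared by RNA sequencing of the choroid plexus. In parabiosis a pair of mice is joined by surgery so that blood passes between them, and a heterochronic pair consists of an old and a young animal. The comparison rests on 5 libraries, chosen by their labels, of the 75 samples listed for the series. The old heterochronic libraries came from parabionts 29 and 34 (m29 and m34 below), aged 22 months, and the young ones from parabionts 9, 14 and 11 (m9, m14 and m11), aged 3 months. All 5 animals were C57BL/6 mice in a shared circulation, so the groups differed in the age of the animal and, in the opposite sense, in the age of the partner. Neither group carried an engineered allele or received an agent, per the labels. Mice were perfused with PBS, the tissue was snap frozen, and RNA was purified with an RNA MicroPrep kit. The labels do not say which animals were partners or for how long they were joined. Nor do they give more than 1 library for an animal. The p-values measure the spread between libraries, estimated over all 11 parabiosis libraries, including the isochronic ones described next.

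Other libraries served as points of comparison. Isochronic parabionts, which were joined to a partner of their own age, gave 3 old (22 months) and 3 young (3 months) libraries of the same strain, tissue and kit. Choroid plexus of C57BL/6 mice that were not joined gave 3 aged (22 months) and 3 young (3 months) libraries, made with another RNA kit and deposited in another table. The study's title concerns an interferon response that arises with age at the choroid plexus, and the heterochronic comparison asks which age differences are found when old and young animals share blood.

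The choroid plexus is a secretory epithelium on a vascular stroma inside the brain ventricles. Its cells produce the cerebrospinal fluid and separate it from the blood. Type I interferons bind a receptor made of Ifnar1 and Ifnar2, whose kinases Jak1 and Tyk2 switch on transcription factors. These bind the interferon-stimulated response element in the promoters of antiviral genes, many of which are used as markers of the response. Some products feed back on the pathway: Irf7 strengthens it, and Usp18 blocks signalling at the receptor.

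Values are the signal the authors deposited, which judged from the numbers holds reads per transcript divided by 1 factor per library, and 1 read is worth 0.783 to 1.48 units depending on the library. Depth was 675132 to 772484 reads in the young heterochronic libraries, 687077 in m29 and 534042 in m34, the lowest of the 11 parabiosis libraries. The epithelial identity of the tissue held in every library: the summed signal of 10 choroid plexus epithelial markers was 4140 to 4702 in young and 4470 (m29) and 5229 (m34) in old heterochronic parabionts. In all 11 libraries the Y-linked gene Ddx3y was present and Xist was near 0, so the animals were male by these genes. Abundant genes were compressed in this table. The top gene of each library held 848 to 993 reads and the 100 most abundant genes 4.16% to 5.34% of the signal, against 45.6% or more in the choroid plexus of mice that were not joined. How duplicate reads were handled is not stated, and the part of this compression in the fold changes of abundant genes was not tested.

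Promoter sequences are shown for 4 interferon-response genes whose windows hold a motif of the response element described above. Ifit1, Apol9b and Bst2 were called between the groups, and Isg15, which was not, is shown because the old animals differed in it. Prom2, Trim25, 1700030C10Rik and Pisd were called too, and their windows lack the motif. The windows come from RefSeq (build GRCm38.p6, 250 bases before and 50 bases after the annotated start). Capitals mark the motif GAAANNGAAA, searched on both strands with overlapping matches allowed, and each run is written 5′ to 3′ on the gene's strand. The Ifit1 stretch is chr19:34640770-34640828 on the plus strand and ends 61 bases before the start. The Apol9b stretch is chr15:77729020-77729065, plus strand. Bst2 lies on the minus strand at chr8:71537572-71537617, and Isg15 on the minus strand at chr4:156200860-156200911.
Ifit1: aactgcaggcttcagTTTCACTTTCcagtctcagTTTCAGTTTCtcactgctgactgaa
Apol9b: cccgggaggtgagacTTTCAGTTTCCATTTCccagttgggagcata
Bst2: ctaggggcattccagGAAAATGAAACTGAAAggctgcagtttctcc
Isg15: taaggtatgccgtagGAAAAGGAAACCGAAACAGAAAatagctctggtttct
The motif is on the reverse strand in Ifit1 and Apol9b and on the gene's strand in Bst2 and Isg15. Of the 15 genes higher in old heterochronic parabionts, 8 have a window in the table and 4 of these hold the motif: Ifit1, Apol9b, Bst2 and Ifitm3, the last just after the annotated start. None of the 4 lower genes, all of which have a window, holds it. Among all 27025 genes of the promoter table, 1079 (3.99%) hold the motif in at least 1 window, as do 381 of the 10502 genes tested that have one (3.63%). Of the 29 interferon genes described further on, 21 have a window and 13 of these (61.9%) hold it. A match is a string of letters and shows no binding, and the absence of a match in these windows says nothing about the factor.

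Old heterochronic parabionts differed from young ones in few genes, and interferon-response genes were prominent among them. Of 13310 genes tested, 15 were higher (0.113%) and 4 were lower (0.0301%) in the old animals, at an adjusted p under 0.05 in limma. The 15 include pairs of entries with the same values, Pisd-ps1 with Pisd-ps3 and Mx2 with NM_013606, an accession without a symbol in the annotation, so 17 distinct profiles were called, 13 of them higher. In all 19 calls the old and young libraries did not overlap. Over all genes tested, both old libraries lay above all young ones in 11.0% and below all of them in 11.9%, so lack of overlap by itself was common. Unadjusted p was under 0.05 for 1106 genes. The count depends on the variance model: limma without the mean-variance trend called 1 gene, which was none of the 19, and voom called 9 higher and 1 lower.

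**Figure D1:**
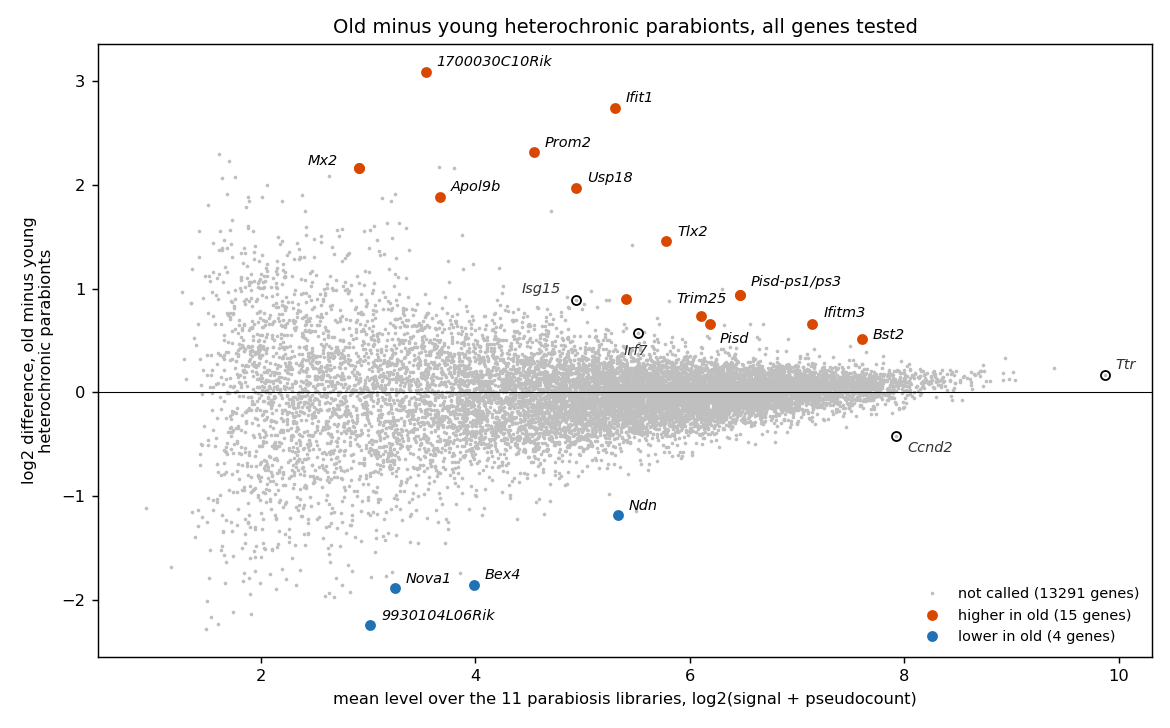
Log2 difference between old and young heterochronic parabionts (y axis) against the mean level over the 11 parabiosis libraries, log2(signal + pseudocount) (x axis), for 13310 genes. The 15 genes called higher (orange) and 4 called lower (blue) are drawn, with names for most; Isg15, Irf7, Ccnd2 and Ttr (open circles) did not pass, and the most abundant genes sit slightly above 0.

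Antiviral effectors were among the genes called. Ifit1, which binds foreign RNA and blocks its translation, was at 10.7, 7.48 and 8.56 in m9, m14 and m11, and at 98.8 in m29 and 42.1 in m34. Both old animals were far above the young ones, and m29, at 11.1 times the young mean, stood above m34, at 4.73 times. The fitted log2 difference of Ifit1 was 2.74 (SE 0.34, adjusted p = 0.000142). Mx2, an interferon-induced GTPase, was at 2.32, 0.997 and 3.02 in the young and at 14.6 and 10.4 in m29 and m34 (log2 difference 2.16, SE 0.47, adjusted p = 0.0462). The young values of Mx2 correspond to 1 to 3 reads.

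Membrane proteins of the antiviral response rose as well. Ifitm3, which hinders virus entry, was at 104, 99.1 and 117 in the young, 175 in m29 and 161 in m34. Its log2 difference was 0.66 (SE 0.10, adjusted p = 0.00113). Bst2, or tetherin, which holds budding virus at the cell surface, was at 194, 152 and 161 in the young, 258 in m29 and 223 in m34. The difference was 0.51 (SE 0.11, adjusted p = 0.0322). Apol9b, an apolipoprotein L relative induced by interferon, was at 5.22, 2.99 and 3.02 in the young, 24.8 in m29 and 10.4 in m34 (log2 difference 1.88, SE 0.40, adjusted p = 0.0430). The m29 value of Apol9b was well above that of m34, and without m29 the gene lost its call (1.29, adjusted p = 0.269).

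Regulators of the pathway rose as well. Usp18, the protease that removes Isg15 from proteins and restrains the receptor, was at 8.11, 13.0 and 13.1 in the young, 66.4 in m29 and 32.5 in m34. Its log2 difference was 1.97 (SE 0.28, adjusted p = 0.000142). Trim25, a ubiquitin ligase that acts on the RNA sensor RIG-I, was at 53.3, 55.6 and 56.4 in the young and at 110 and 77.7 in m29 and m34. That difference was 0.74 (SE 0.15, adjusted p = 0.0302). For both genes the lower of the old values exceeded the highest young value.

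Genes outside the interferon response were among the strongest calls. 1700030C10Rik, an uncharacterised transcript, was at 4.64, 1.16 and 1.01 in m9, m14 and m11 and at 26.6 and 20.9 in m29 and m34. Its log2 difference of 3.09 (SE 0.45, adjusted p = 0.000221) was the largest of the 15. The m14 and m11 values of 1700030C10Rik are worth about 1 read, and its difference was 2.19 to 3.70 with the other pseudocounts. Prom2, a prominin of plasma membrane protrusions, was at 11.6, 5.98 and 6.04 in the young, 36.0 in m29 and 47.3 in m34 (log2 difference 2.31, SE 0.30, adjusted p = 0.000142). Here m34 was the higher of the old animals. The homeobox gene Tlx2, known from neural crest development, was at 31.3, 44.9 and 20.1 in the young, 91.1 in m29 and 79.9 in m34, with a log2 difference of 1.45 (SE 0.22, adjusted p = 0.00143).

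The phosphatidylserine decarboxylase family formed another group. Pisd encodes the mitochondrial enzyme that makes phosphatidylethanolamine, and Pisd-ps1 and Pisd-ps3 are transcribed pseudogene copies of it. Pisd-ps1 and Pisd-ps3 shared identical values in the table, 62.0, 61.8 and 69.0 in the young, 143 in m29 and 108 in m34 (log2 difference 0.94, SE 0.13, adjusted p = 0.000142). Pisd was at 59.7, 53.4 and 64.4 in the young and at 94.0 and 93.9 in m29 and m34 (0.66, SE 0.12, adjusted p = 0.0117). Pisd fell outside the naming rule and was chosen after its values were seen. Reads of near-identical copies cannot be assigned with certainty, so the 3 names may not stand for 3 separate changes.

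Only 4 genes passed in the lower direction. Ndn, or necdin, an imprinted growth suppressor, was at 56.8, 41.9 and 64.4 in m9, m14 and m11 and at 22.5 and 23.7 in m29 and m34. Both old animals were at nearly the same level, and the log2 difference was -1.18 (SE 0.21, adjusted p = 0.0078). Of 13 tested imprinted growth genes Ndn was the 1 called, 6 were below 0, and the list's median was 0.03. Bex4, of the brain-expressed X-linked family, was at 15.8, 17.8 and 17.3 in the young, 5.25 in m29 and 2.96 in m34 (-1.85, SE 0.36, adjusted p = 0.0178). Nova1, a neuronal splicing factor, was at 12.8, 8.98 and 12.1 in the young, 3.38 in m29 and 1.48 in m34 (-1.88, SE 0.41, adjusted p = 0.0464). The uncharacterised gene 9930104L06Rik was at 6.96, 11.3 and 12.1 in the young and at 1.13 and 1.48 in the old (-2.24, SE 0.44, adjusted p = 0.0174). In m29 and m34 the value of 9930104L06Rik is worth 1 read, so its size is poorly determined. The m34 value of Nova1 is worth 1 read as well. The summed signal of 6 neuronal markers was 32.9 to 40.6 in the young, 57.4 in m29 and 32.5 in m34. The part of neuronal tissue in the lower calls was not tested.

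**Figure D2:**
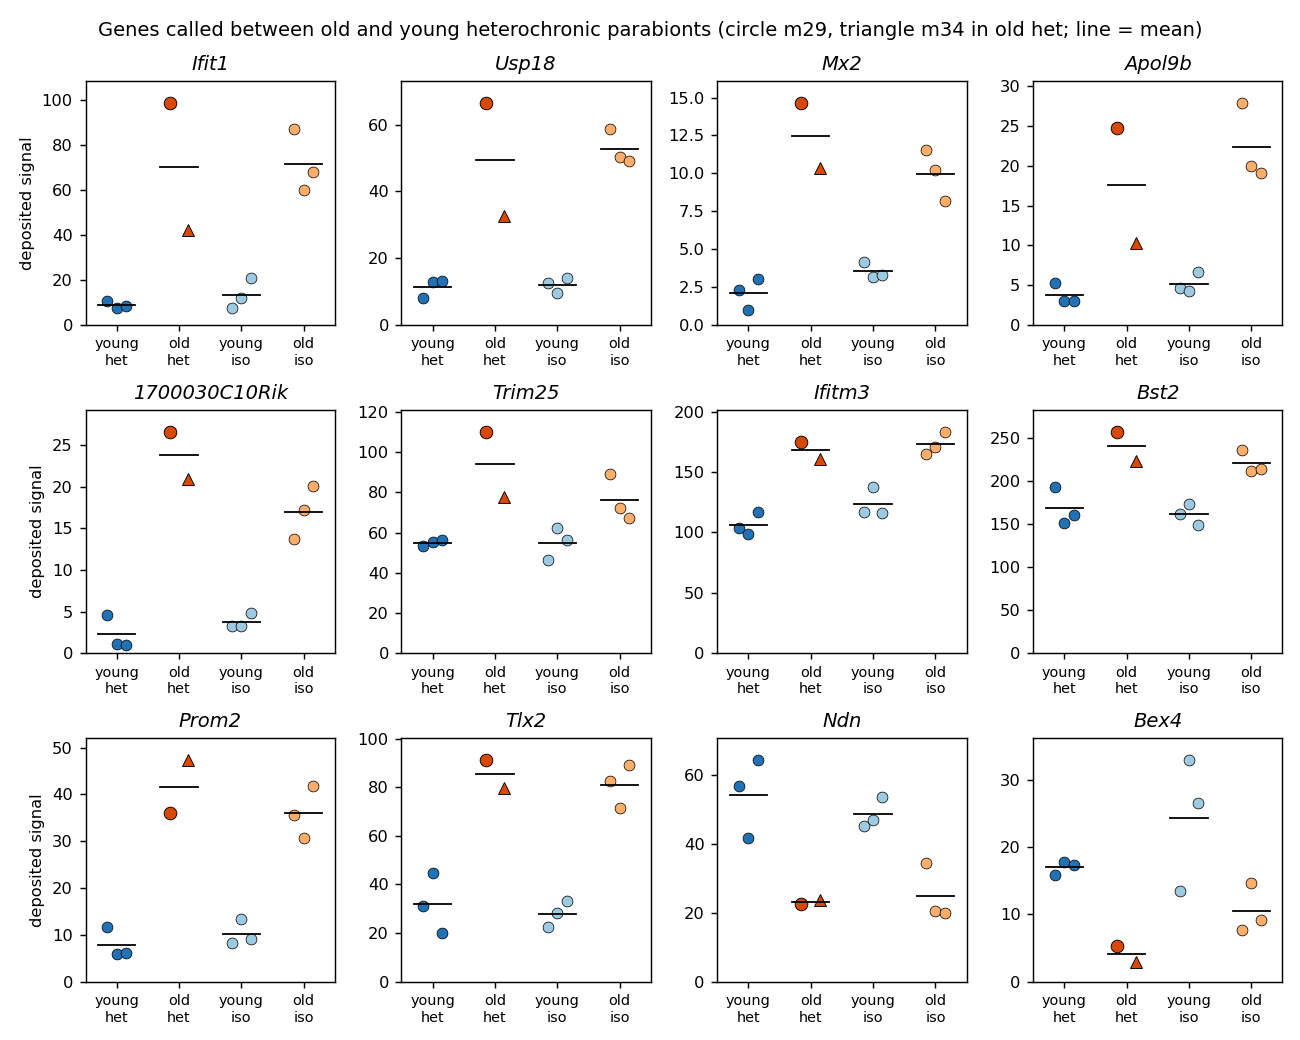
Deposited signal (y axis, from 0) of 12 called genes in each library of the 4 parabiosis groups (x axis); points are libraries, the line is the group mean, and in the old heterochronic group the circle is m29 and the triangle m34. The 2 old heterochronic libraries do not overlap the 3 young ones in any panel, m29 lies well above m34 for Ifit1, Usp18 and Apol9b, and the isochronic groups are drawn in lighter colours.

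The next genes in the lower direction did not pass. Ccnd2, cyclin D2, which promotes the start of DNA replication, was at 314, 254 and 290 in the young, 203 in m29 and 225 in m34 (log2 difference -0.42, SE 0.10, adjusted p = 0.0697). Ccnd2 passed with quantile scaling (adjusted p = 0.00137), with equal totals (0.0246), with voom (0.0434) and without m14 (0.0491), and over the other alternatives its adjusted p was 0.0704 or more. Kif22, a mitotic kinesin, was at 30.1, 36.4 and 30.2 in the young and at 18.0 and 12.6 in the old (adjusted p = 0.0569). The ribosomal protein gene Rps10 gave 134, 117 and 126 in the young, 88.0 in m29 and 91.9 in m34 (adjusted p = 0.0612). B3galnt1, a glycosyltransferase gene, was at 10.1 to 11.6 in the young and at 2.25 and 2.96 in the old (adjusted p = 0.0668). The remaining genes of this set, Cpeb1, Tgds, Wipi1 and Smpd4, had log2 differences of -0.79, -1.02, -0.58 and -0.88 and adjusted p-values of 0.0668 to 0.0838. For these 8 genes the groups did not overlap, but they were picked by the smallest p in the same libraries. Over all genes tested, both old libraries lay below all young ones in 11.9%. In the D cyclin and cell cycle inhibitor list, 10 of 12 genes were tested, none was called, and 7 were below 0. Cdkn1a was at 56.8, 108 and 44.3 in the young, with m14 apart, and at 48.4 and 60.6 in the old, and Cdkn2a was under the filter with at most 1.48 in these 5 libraries.

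Interferon-response genes as a group were higher in old animals, and the differences were larger in m29 than in m34. The type I interferon list has 35 genes, of which 29 were tested. Of these, 6 rose, among them Ifit1, Usp18, Ifitm3, Bst2 and Mx2, none fell, and all 29 had a difference above 0, with a median of 0.89 on the log2 scale against -0.0003 over all genes tested, where 6646 of 13310 were above 0. The list includes genes picked with earlier results of these data known, so its direction is not independent evidence. In the m29 library all 29 genes were above every young heterochronic library. In m34 this held for 21 of the 29, and 28 of the 29 genes were higher in m29 than in m34. Over all genes tested m29 was above every young heterochronic library in 23.7%, m34 in 28.8%, and m29 above m34 in 48.4%. The median over the list, relative to the young mean, was 1.29 in m29 and 0.40 in m34 on the log2 scale, against -0.10, 0.04 and 0.08 in m14, m11 and m9.

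**Figure D3:**
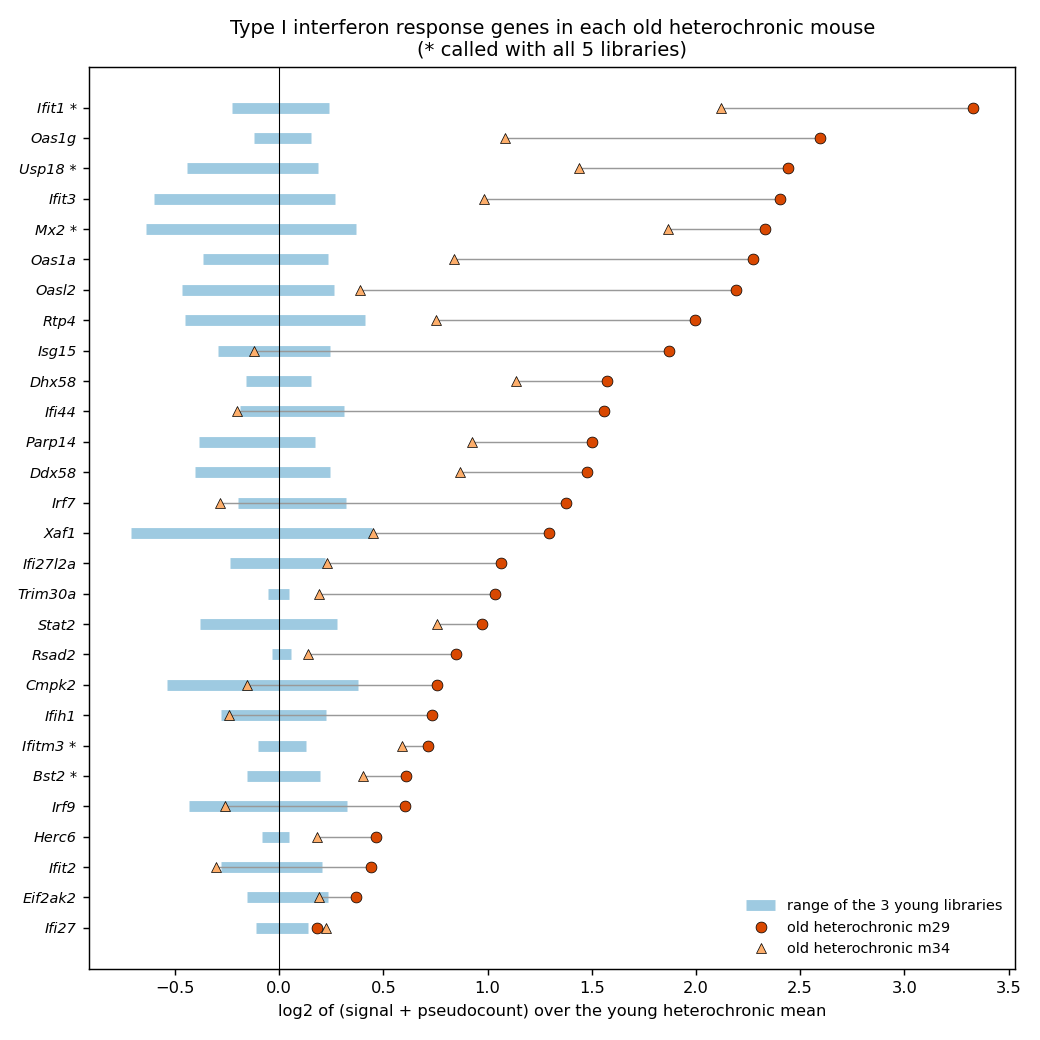
Tested type I interferon genes (rows, 28 of the 29) in m29 (orange circles) and m34 (light triangles), as log2 of the signal over the young heterochronic mean (x axis); the blue bar is the range of the 3 young libraries. Every m29 point lies to the right of the bar, while m34 lies inside or left of it for genes such as Isg15, Irf7, Ifih1 and Irf9.

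The old animals differed from each other on several genes of the response. Isg15, a ubiquitin-like modifier, was at 18.5, 14.96 and 22.1 in the young, 70.4 in m29 and 17.0 in m34. The m34 value fell among the young ones, and the log2 difference of Isg15 was 0.89 (SE 0.37, adjusted p = 0.533). Irf7, the transcription factor that amplifies interferon production, was at 30.1, 29.9 and 43.3 in the young, 91.1 in m29 and 28.1 in m34 (0.57, SE 0.40, adjusted p = 0.730). For Irf7 the m34 library was below all 3 young ones. Oasl2, an oligoadenylate synthetase relative, was at 2.01 to 3.99 in the young, 18.0 in m29 and 4.44 in m34.

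Other members did not pass the test with all 5 libraries. Both old animals were above the young range in 21 of the 29 members, called or not, against 11.0% of all genes tested. Ifit3, Rtp4 and Stat2 were among the uncalled ones. Without m34, Ifit3 (adjusted p = 0.0016), Rtp4 (0.00023), Ifi27l2a (0.000312), Isg15 (0.000511) and Irf7 (0.00634) passed. Ifit3 also passed with quantile scaling (0.0483), and Rtp4 without the filter (0.0414) and without m9 (0.01996). Ifit3, a partner of Ifit1, was at 12.8, 6.98 and 13.6 in the young, 63.0 in m29 and 22.9 in m34 (log2 difference 1.74, SE 0.37, adjusted p = 0.0612). Rtp4, a chaperone of receptors that is induced by interferon, was at 30.1, 20.9 and 16.1 in the young, 92.3 in m29 and 38.4 in m34 (1.42, SE 0.30, adjusted p = 0.0638). Stat2, a transcription factor of the pathway, was at 33.6, 20.9 and 28.2 in the young, 55.1 in m29 and 47.3 in m34 (0.89, SE 0.20, adjusted p = 0.0668). Ifi27l2a was at 53.3, 61.8 and 73.5 in the young and 133 in m29, while m34, at 73.9, stood level with the highest young library (0.66, SE 0.17, adjusted p = 0.166).

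Leaving out either old library changed the calls, so both counts are given. With m34 alone as the old group, assumed to vary like the other libraries, 10 genes were higher and 51 lower, 3 of the 29 interferon genes were called, and the list's median was 0.42. With m29 alone, 23 genes were higher and 8 lower, 12 of the interferon genes were called, and the median was 1.37. Of the 19 calls made with both animals, 11 were also called with m34 alone and 14 with m29 alone. Leaving out m14 gave 8 higher and 2 lower genes, and leaving out m9 gave 13 higher and 1 lower. Called in each of the 5 fits that leave out a heterochronic library were 1700030C10Rik, Ifit1, Ifitm3, Pisd-ps1, Pisd-ps3, Prom2, Tlx2 and Usp18. The lower genes each lost their call in at least 1 of these fits, Ndn without m9 or without m11.

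No upstream component of the pathway passed the test. Of 18 listed ligands, receptors and signalling genes, 13 were tested and none was called, with a median log2 difference of 0.05. Ifnar1 was at 34.7 to 46.3 in the young and 33.3 and 38.9 in m29 and m34, and Ifnar2 at 81.1 to 92.8 against 79.9 and 91.7. Ifnb1, the gene of interferon beta, was not analysed here. The 16 tested targets of interferon gamma, mostly guanylate-binding proteins, immunity-related GTPases, regulators and chemokines, gave no call, with 14 above 0 and a median of 0.64. Irgm1, a GTPase of autophagy, was at 26.7, 23.4 and 22.3 in the young, 60.8 in m29 and 34.0 in m34 (log2 difference 0.89, SE 0.21, adjusted p = 0.0817). Cxcl10, a chemokine for activated T cells, was at 0.997 to 2.32 in the young and 5.63 and 2.96 in the old, which is a handful of reads (adjusted p = 0.760).

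Antigen presentation genes lay above 0 without a call. All 17 tested genes of the MHC class I list failed the test, 14 were above 0 and the median was 0.31, which was near the same in m29 (0.26) and m34 (0.31). H2-D1, a classical class I heavy chain, was at 81.3, 88.1 and 81.9 in the young and 121 and 123 in the old (log2 difference 0.53, SE 0.12, adjusted p = 0.0569). B2m, the light chain, was at 148, 158 and 168 in the young and 197 and 195 in the old (0.31, SE 0.10, adjusted p = 0.290). In these genes the old animals matched each other, unlike in Isg15 or Irf7.

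Class II and macrophage genes were highest in m34 and lowest in m14. The MHC class II list had 7 tested genes, all above 0 and none called, with a median of 0.66. H2-Aa was at 54.5, 29.9 and 79.5 in m9, m14 and m11, 90.0 in m29 and 115 in m34 (adjusted p = 0.497). Its companion Cd74, the invariant chain, was at 81.1, 60.8 and 95.6 in the young and 109 and 140 in the old (0.66, SE 0.16, adjusted p = 0.14). Of 19 tested macrophage and microglia genes 16 were above 0 and none was called, with a median of 0.44. Relative to the young mean that median was 0.73 in m34 but 0.16 in m29, and -0.38 in m14, which was the lowest young library for 15 of the 19. Trem2, a lipid receptor of microglia and macrophages, was at 8.11, 5.98 and 5.03 in the young, 12.4 in m29 and 16.3 in m34 (1.06, SE 0.34, adjusted p = 0.317).

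Marker sums of other cell types differed between these libraries. The summed signal of 6 macrophage markers was 91.3 to 153 in the young, 154 in m29 and 227 in m34. That of 5 erythroid markers was 140 to 178 in the young, 122 in m29 and 278 in m34, and of 5 mural cell markers 202 to 230, 204 and 284. Endothelial markers summed to 263 to 340 in the young, 286 in m29 and 339 in m34, and 3 T cell markers to at most 6.04. None of the T cell list's 11 genes in the table passed the filter. Blood, mural and macrophage markers were thus higher in m34 than in m29, while the interferon list was higher in m29. The part of cell composition in these differences was not tested, and in bulk tissue more cells of a type and more RNA per cell cannot be told apart.

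**Figure D4:**
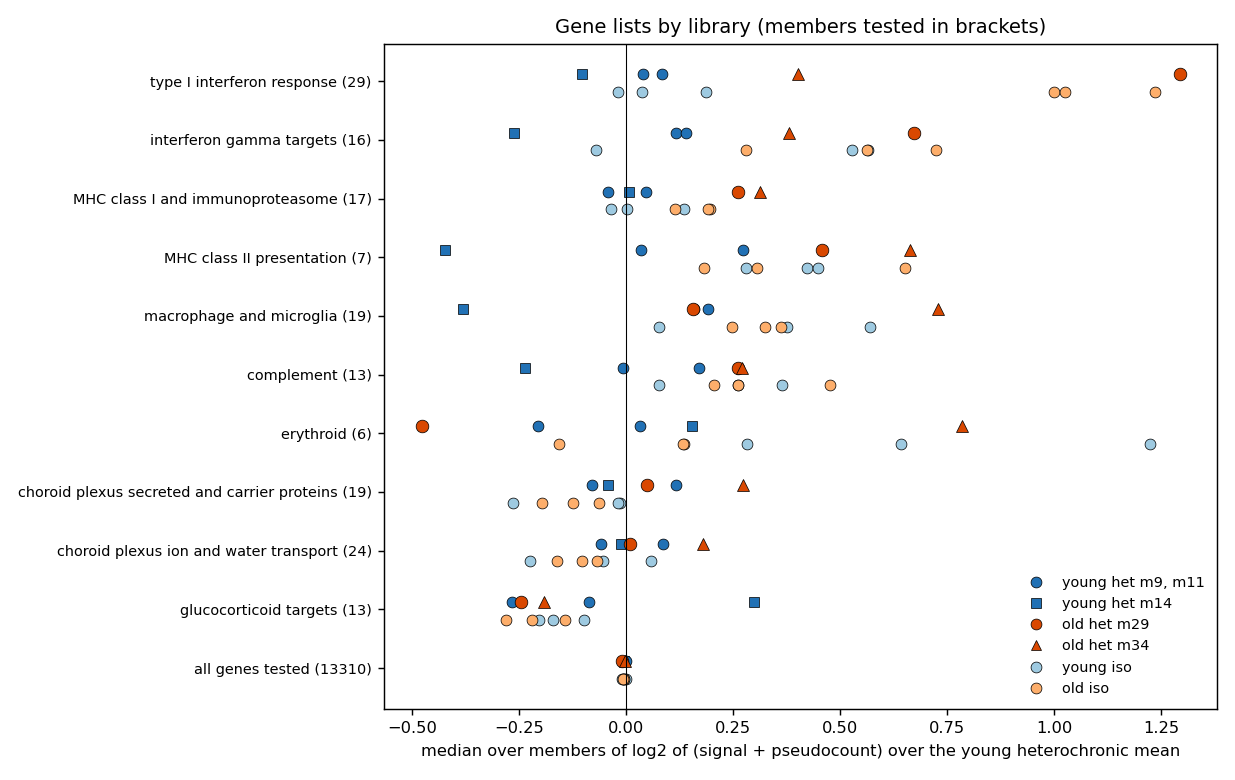
Median over the tested members of each gene list (rows) of log2 signal relative to the young heterochronic mean (x axis), 1 point per library; squares mark m14 and triangles m34. For the type I interferon list m29 sits at 1.29 beside the old isochronic libraries and m34 at 0.40, while m34 is the highest heterochronic library for macrophage and erythroid genes.

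Complement, chemokine and adhesion genes gave no call. In the complement list 11 of 13 tested genes were above 0 (median 0.39). Serping1, the C1 inhibitor, was at 55.6, 52.9 and 59.4 in the young and 68.6 and 84.3 in the old (0.44, SE 0.13, adjusted p = 0.222). Of 13 tested chemokines 10 were above 0. Ccl2, which recruits monocytes, was at 0.997 to 3.48 in the young and 9.00 and 8.87 in the old (adjusted p = 0.405). Ccl11, an eosinophil chemokine, was listed at 0 in all 5 heterochronic libraries, and Ccl17 ranged from 0 to 4.03 in them with a difference of -0.01. Of the adhesion molecules that leukocytes use, Icam1 was at 22.9 to 23.2 in the young and 32.6 and 35.5 in the old (0.54, SE 0.25, adjusted p = 0.560), and Vcam1 at 155 to 192 against 170 and 192.

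Genes of secreted and transport proteins of the epithelium were highest in m34. Of 19 tested secreted and carrier genes 17 were above 0 (median 0.14), and of 24 ion and water transport genes 21 (median 0.10), with no call in either. Ttr, the thyroxine carrier transthyretin, was at 1065, 919 and 944 in the young, 960 in m29 and 1254 in m34. The top gene held 919, 921 and 938 reads in m9, m14 and m11, 853 in m29 and 848 in m34. Ttr was that gene, so it was lowest in m34 by reads and highest there by signal. Kl, which encodes klotho, was at 532, 448 and 486 in the young and 518 and 595 in the old (0.19, SE 0.10, adjusted p = 0.610). The 100 most abundant genes of the table had a median log2 difference of 0.12, with 0.03 in m29 and 0.21 in m34, the same direction as these lists, and m34 is the shallowest library; the part of depth was not tested. Growth factors gave 18 of 20 above 0 with a median of 0.13. Igf1 was at 6.04 to 6.98 in the young and 7.88 and 8.87 in the old, Gdf11 at 120 to 130 against 125 and 130, and Bdnf was under the filter with at most 1.16.

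Targets of the glucocorticoid receptor pointed the other way, and here a young animal stood apart. Of 13 tested genes 1 was above 0, with a median of -0.18 and no call. Fkbp5, a co-chaperone of that receptor, was at 42.9, 83.8 and 26.2 in m9, m14 and m11 and at 19.1 and 26.6 in the old (-0.98, SE 0.37, adjusted p = 0.497). Zbtb16 was at 12.8, 24.9 and 4.03 in the young, 4.50 in m29 and 2.96 in m34 (-1.38, SE 0.56, adjusted p = 0.497). For both genes m14 was the highest library, and m11 was close to the old animals. The list's median relative to the young mean was 0.30 in m14 and between -0.27 and -0.09 in the other 4 heterochronic libraries.

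Age differences in isochronic parabionts, which share no library with this comparison, had the same direction. Old isochronic parabionts had 20 higher (0.15%) and 5 lower genes (0.0376%) than young ones. Of the 19 heterochronic calls, 11 (57.9%) were isochronic calls, which is 44.0% of the 25 isochronic calls. All 19 had the same sign in isochronic mice, as did 24 of the 25 isochronic calls in heterochronic mice, against 49.5% of all genes tested. In 23 of those 25 the old and young heterochronic libraries did not overlap. Over all genes tested, both old libraries were above all young ones in 11.0% and below them in 11.9%. Both comparisons share the spread estimate of 1 fit.

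Other genes passed in isochronic but not in heterochronic mice. Ifi27l2a had a log2 difference of 1.26 (adjusted p = 0.000118) in isochronic and 0.66 in heterochronic mice, and Rtp4 1.77 (adjusted p = 0.00280) and 1.42. Sytl1, a synaptotagmin-like gene of vesicle traffic, had 1.60 (adjusted p = 0.00509) against 0.62. Among lower genes, Ccnd2 had -0.52 (adjusted p = 0.00216) against -0.42, Evl, an actin regulator, -1.24 against -0.82, and Prrg3, a vitamin K-dependent membrane protein, -1.36 against -0.80. B3galnt1 had -1.61 (adjusted p = 0.0481) in isochronic and -1.73 in heterochronic mice. The exception in sign was H2-T23, a nonclassical class I gene, at 0.89 (adjusted p = 0.0481) in isochronic and -0.29 in heterochronic mice.

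The difference between the age differences itself was not called for any gene. Of 13310 genes 0 passed (0.0%), the smallest adjusted p in limma was 0.390, 846 genes had an unadjusted p under 0.05, and voom also called 0. For Ifit1 the heterochronic age difference exceeded the isochronic one by 0.31 (SE 0.45), for Usp18 the gap was -0.10 (SE 0.37), for Tlx2 -0.06 (SE 0.30) and for Ndn -0.21 (SE 0.29). Irf7 had -0.98 (SE 0.53), Isg15 -0.74 (SE 0.50) and Ifi27l2a -0.60 (SE 0.23), each with an adjusted p of 0.730 or more. These errors leave room for sizeable differences in either direction. The smallest p-values in the higher direction belonged to Cx3cr1 (1.27, SE 0.28), a fractalkine receptor of microglia and macrophages, Ankrd13d, Alpl and Ahnak, and in the lower direction to Rps10 (-0.69, SE 0.14), 1700013F07Rik, H2-T23 and Pim1.

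That count also turned on m29. Without m29, which leaves m34 as the only old heterochronic library, 9 genes were called for this difference. Irf7 (-1.82, SE 0.32, adjusted p = 0.0265) and Ifi27l2a (-1.01, SE 0.20, adjusted p = 0.0290) had a lower signed age difference in heterochronic than in isochronic mice. Mybph, Pigx and Rhebl1 did too, with heterochronic differences of -2.89, -1.15 and -3.03 against isochronic ones of 0.23, 0.060 and 0.69. In m34 the Mybph value is worth 1 read and the Rhebl1 value is 0.0, so the sizes for these genes are poorly determined. Cx3cr1 (1.60, SE 0.30) and the globin genes Hba-a1, Hba-a2 (near-identical copies) and Hbb-bs had a higher one, with isochronic differences below 0, and the globins were highest in m34 among the heterochronic libraries. Without m34 no gene was called. Against the old isochronic libraries, m29 was above all 3 in 15 of the 29 interferon genes (51.7%, with 27.2% over all genes tested), and m34 was below all 3 in 21 of 29 (72.4%, with 32.6% over all genes).

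**Figure D5:**
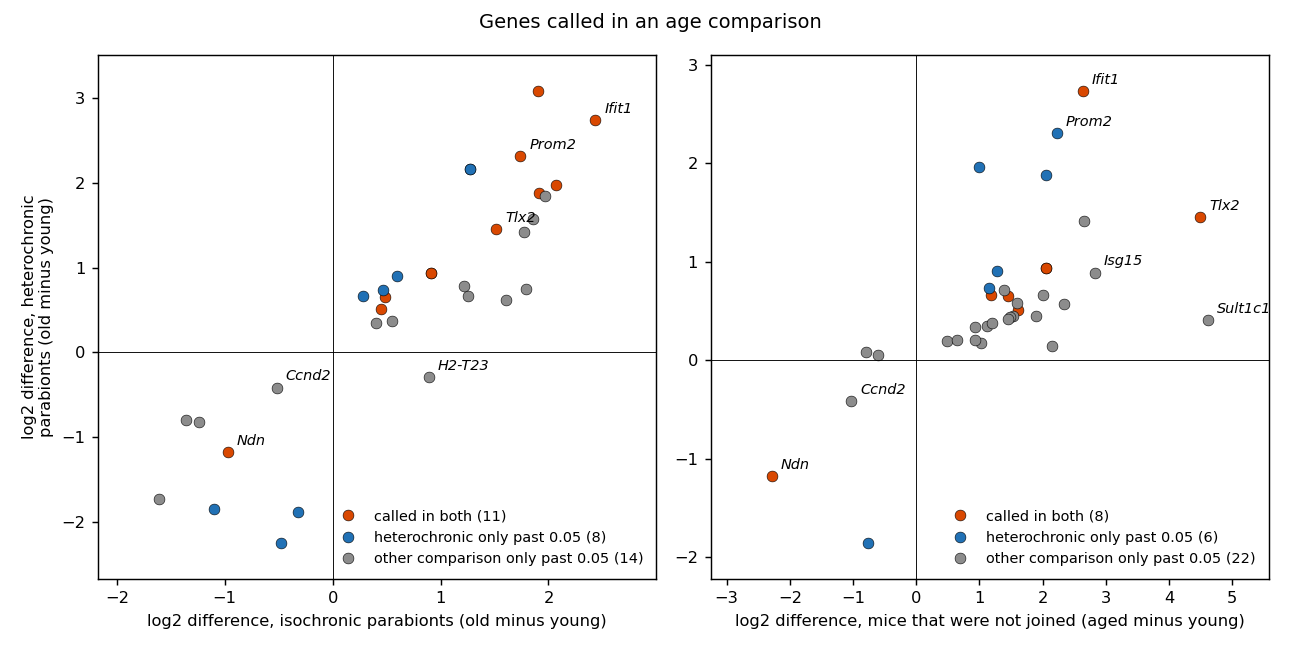
Log2 age difference in heterochronic parabionts (y axis) against that in isochronic parabionts (left, x axis) and in mice that were not joined (right, x axis), for genes called in either comparison of a panel and tested in both. Points in orange passed in both (11 and 8 genes); H2-T23 at left lies on the other side of 0, and Sult1c1 at right is at 4.62 on the x axis and 0.41 on the y axis.

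In mice that were not joined, 27 genes were higher (0.276%) and 4 lower (0.0409%) with age of 9773 tested. Of these 31, 30 were tested in parabionts and 28 had the same sign between old and young heterochronic mice, against 52.3% of the 9707 genes tested in both tables. Both exceptions, Whrn and Sparc, were near 0 there (0.08 and 0.05). Shared calls numbered 8, or 25.8% of the calls in mice that were not joined and 42.1% of the 19 heterochronic calls. Only 14 of those 19 were tested in mice that were not joined, so the others could not be shared. Bst2, Ifit1, Ifitm3, Ndn, Pisd-ps1, Pisd-ps3 and Tlx2 were called in all 3 age comparisons, and Pisd was called in heterochronic mice and in mice that were not joined. With the mouse number as a replicate block, the fit of the mice that were not joined gave 40 calls in place of 31.

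Sizes differed between the tables, which were normalised separately. Tlx2 had a log2 difference of 4.49 (adjusted p = 7.54e-06) in mice that were not joined against 1.45 in heterochronic parabionts, Bst2 1.61 against 0.51, and Isg15 2.83 (adjusted p = 0.000771) against 0.89. Ifit1 gave 2.63 against 2.74. Sult1c1, a sulfotransferase, had 4.62 (adjusted p = 3.31e-07) in mice that were not joined and 0.41 (adjusted p = 0.756) in heterochronic parabionts, where the young values of 46.4, 72.8 and 34.2 spanned those of m29 (61.9) and m34 (68.0). Cox8b, a subunit of cytochrome oxidase, had 1.90 and 0.45 (adjusted p = 0.0838), and Lgals3bp, a secreted galectin-binding glycoprotein, 1.11 and 0.35 (adjusted p = 0.201). In young mice that were not joined, Tlx2 was at 0.0 in every library and Sult1c1 at 0.0, 1.38 and 0.0. The 4.49 and 4.62 therefore depend on the pseudocount and are poorly determined. Young heterochronic parabionts had Tlx2 at 20.1 to 44.9, well above that floor. Kit, table and the compression of abundant genes differ along with the joining of the animals, so their parts in these sizes cannot be told apart.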

How the data were processed

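The members of the comparison, the gene lists and the tests were chosen with earlier results of these data known. The authors deposited 1 table for the 11 parabiosis libraries and another for tissues; the submitters' processing notes name TopHat and the mouse build mm9. For counting, duplicates and scaling, no method is given in the sources used here. The values the authors deposited are treated as a signal: 85.3% to 86.8% of the values above 0 in the parabiosis table were whole multiples of the value worth 1 read, within a tolerance of 0.001, so the remainder hold fractions of reads and no count model was used. The tissue table has 1 column that matches no listed sample and was not used; of the others only the choroid plexus columns were.

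The 21781 transcripts of the parabiosis table (25865 of the tissue table) were named from RefSeq by accession (21366 and 25307) or symbol, and for each gene the row of highest mean signal stayed, giving 16925 and 20644 genes. Tests were two-sided and used limma (version 3.58.1; R version 4.3.3), with a trended and robust empirical Bayes step, on log2 of the signal plus a pseudocount worth 1 read (0.997, and 1.24 for tissue), so differences of low genes are understated. The 4 parabiosis groups were fitted together; the choroid plexus of mice that were not joined was fitted alone. A gene was tested where at least 2 libraries (3 for tissue) exceeded 4 times the pseudocount, and called where its p, adjusted by Benjamini-Hochberg over all genes tested, was under 0.05. The fit was tested on simulated data. With 2 libraries in a group the precision is limited by their number.

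Genes were named by rule: the 12 called genes with the largest difference in each direction, filled to 12 by the smallest p; the first 4 in each direction for the difference of differences; calls with the smallest p in the other comparisons; members with the smallest p in described lists; and 24 genes always considered. Other genes were chosen after their values were seen. A gene that the rule names is counted in totals and medians but not reported here. Alternatives were other pseudocounts, no filter, quantile and total scaling, no trend, voom, the 5 heterochronic libraries alone, a replicate block for tissue and leaving out each library. Parabiont numbers are unique, so no pairing of them was possible.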

Additional observations from a re-analysis of the deposited data

How the results depend on the processing

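Between old and young heterochronic parabionts 19 genes were called. The count became 1 (0 higher, 1 lower) in limma without the mean-variance trend, 10 with voom (9 higher, 1 lower) and 9 with only the 5 heterochronic libraries (8 higher, 1 lower). Leaving out each of the 5 libraries gave 10 to 61 calls, with 8 to 23 higher and 1 to 51 lower. The difference of age differences gave 0 to 9 calls over the 11 libraries left out in turn. The isochronic count of 25 became 16 with the smallest value above 0 as pseudocount, 2 without the trend, and 9 to 17 with a library left out. The count of 31 in mice that were not joined became 55 without the filter, 9 without the trend, 17 to 38 with a library left out, and 40 with the replicate block. The causes were not tested. The 1700030C10Rik, Ifitm3, Pisd-ps1, Pisd-ps3, Prom2, Tlx2 and Usp18 calls held under every alternative but the fit without trend. Ifit1 lost its call in that fit and with voom (adjusted p = 0.165). Nova1 lost its call under 10 of 13 alternatives, Mx2 and Trim25 under 9, and Bst2 under 7.

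Some genes that did not pass changed direction. With quantile scaling the log2 difference was -0.045 for Sparc, -0.016 for Vcam1, -0.018 for Gdf11 and -0.0 for Ttr, and with the smaller pseudocount it was 1.01 for Ccl17. With a library left out it ranged from -0.082 to 0.19 for Whrn, -0.061 to 0.14 for Sparc, -0.26 to 1.40 for Irf7, -0.10 to 1.89 for Isg15, -0.79 to 0.44 for Ccl17, -0.067 to 0.12 for Vcam1, -0.020 to 0.046 for Gdf11, -0.021 to 0.36 for Ttr and -0.52 to 0.11 for Cdkn1a. The negative ends of Irf7 and Isg15 are those without m29.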

Other observations

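Other gene lists held no call between old and young heterochronic parabionts. Of 5 tested neutrophil genes 4 were above 0, with a median of 0.68, and relative to the young mean the list stood at 0.98 in m34 and 0.32 in m29. Collagen and matrix genes, which form the stroma, had 19 of 27 above 0 and a median of 0.20, with 0.26 in m34 and -0.01 in m29. Cytosolic ribosomal protein genes had 23 of 29 above 0 (median 0.074). Genes of motile cilia were split 9 to 9, and nuclear-coded respiratory chain genes 14 above to 11 below 0, with medians of 0.0045 and 0.027.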
